A study of Mus musculus with 14 samples.

Results

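The cytosolic ribosomal protein genes were followed through tumours of mice treated with cyclophosphamide. They were taken from the deposited gene table as the protein-coding rows whose symbol is Rpl, Rps or Rplp with a number, or Rpsa, with at most 1 letter (a, x, y or l) after the number, leaving out the kinases named Rps6k. The rule found 80 genes of 54532, of which 49 belong to the large (60S) subunit and 31 to the small (40S) subunit. The paralogs Rpl3l, Rpl10l, Rpl39l and Rps27l are among them. Genes whose protein is ribosomal but whose symbol is built differently, such as Fau, Rack1 and Rps3a1, are not, and are described separately.

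The tumours grew from 4T1 cells, a mouse mammary carcinoma line used as a model of triple-negative breast cancer, of which 1000000 were placed under the skin at the mammary gland. Injections into the peritoneum began on day 9, when tumours measured about 100 mm3, and were repeated every 6 days for 3 cycles. Tumours were taken 3 days after the last cycle and their bulk RNA was sequenced. The 4 PBS tumours came from mice given the saline vehicle, the 5 CTX100 tumours from mice given cyclophosphamide at 100 mg/kg and the 5 CTX140 tumours from mice given 140 mg/kg, each in 100 μL of PBS. Cyclophosphamide is an alkylating drug that is turned into its active form in the liver and crosslinks DNA. Nothing read here gives the mouse strain or age, or says whether each library is from its own animal, so the p-values measure the spread between these libraries. All groups carry the same cell line, and although the labels call the cells TNBC cells, RNA was taken from whole tumour tissue: no list of markers of 11 cell types had a gene without counts in any group.

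Each cytosolic ribosome joins a small subunit, which reads the mRNA, to a large subunit, which forms the peptide bond. Most of its proteins are made in equal numbers, 1 copy per ribosome, and their mRNAs are among the most abundant of growing cells. Their transcripts start with a run of pyrimidines, the 5′ terminal oligopyrimidine (5′ TOP) tract, through which mTOR signalling sets how much of the mRNA is translated. Such control acts on translation and need not change the mRNA level, which is what was measured here. Some free ribosomal proteins, Rpl5 and Rpl11 above all, bind Mdm2 and stabilise p53 when ribosome assembly fails.

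The start regions of 8 of these genes are printed because they show the pyrimidine runs near the starts of these genes and how they differ between a gene and its paralog. Each holds the 40 bases before and the 20 bases after a transcription start in the RefSeq-based promoter table of build GRCm38.p6, 5′ to 3′ on the gene's strand, and the capitals mark the longest run of C and T that reaches to within 5 bases of the start.
Rps6, chr4:86857348-86857407, minus strand: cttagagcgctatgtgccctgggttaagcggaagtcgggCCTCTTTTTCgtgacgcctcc
Rplp2, chr7:141447611-141447670, plus strand: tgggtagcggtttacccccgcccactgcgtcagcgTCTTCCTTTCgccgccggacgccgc
Rps10, chr17:27635225-27635284, minus strand: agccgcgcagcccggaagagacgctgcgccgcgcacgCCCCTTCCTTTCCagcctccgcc
Rpl35a, chr16:33056442-33056501, plus strand: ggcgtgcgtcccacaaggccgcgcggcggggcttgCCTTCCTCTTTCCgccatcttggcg
Rps27, chr3:90213629-90213688, minus strand: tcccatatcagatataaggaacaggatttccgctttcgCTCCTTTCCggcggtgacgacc
Rps27l, chr9:66946046-66946105, plus strand: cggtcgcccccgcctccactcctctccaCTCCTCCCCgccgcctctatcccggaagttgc
Rpl39, chrX:37085203-37085262, minus strand: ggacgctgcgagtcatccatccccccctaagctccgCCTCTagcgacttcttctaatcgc
Rpl39l, chr16:10170188-10170247, plus strand: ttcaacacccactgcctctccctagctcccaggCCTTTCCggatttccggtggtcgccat
In Rpl39l the run is 7 bases long, against 5 bases in its partner Rpl39. In Rps27 the run is 9 bases long and holds the listed start; in Rps27l it is 9 bases long too but its last base lies 4 bases before the start. In Rpl39l the last base of the run lies 1 base before the start, and in the other 6 genes the run holds it. Rpl35a has other listed starts with runs of 4 bases and 1 base, and Rps27l another with a run of 4 bases, which are not printed. The median run over the 72 listed starts of the ribosomal protein genes was 4.5 bases.

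Promoters were found for 60 of the 80 genes, with 72 listed starts, against 32841 starts of 27018 genes in the whole table. A pyrimidine run of 8 or more bases lay at 31.9% of the ribosomal protein gene starts, against 9.72% of all starts. The letters CTTTCC, read on the gene's strand from 15 bases before to 20 bases after the start, were found at 13.9% of the ribosomal protein gene starts, against 1.65% of all. Over the whole promoter of 250 bases before and 50 after the start, on either strand, CCGGAAG, the core bound by ETS factors, was found in 36.1% against 8.86% and AAGATGG, the core bound by YY1, in 15.3% against 6.34%. No ribosomal protein gene start had TATAAA between 40 and 15 bases before it, against 1.99% of all starts. These are matches of letters in the windows and not measured binding.

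The levels of the genes spanned from the top of the transcriptome to no counts at all. Levels between genes are compared here in FPKM, fragments per kilobase of listed gene length and per 1000000 counts of a scaled library size, as the authors deposited them. Rplp1, a protein of the acidic stalk that recruits elongation factors, was highest with a mean of 5966 FPKM over the 14 libraries. It was followed by Rps15 with 2780 FPKM, Rpl36 with 2590 FPKM and Rpl41 with 2261 FPKM. This order depends on the listed gene lengths, which are 383 bases for Rpl36, 499 for Rplp1 and 630 for Rps15. Rpsa, listed at 3170 bases, had the most counts of the members, 1244470 over all libraries. Rplp1 exceeded Rps15 in every library, but the libraries of the next ranks interleaved: Rps15 had 1964 to 3616 FPKM in PBS libraries and Rpl36 had 1353 to 3681 FPKM there. At the other end Rpl10l was listed at 0 in every library, Rpl3l averaged 0.134 FPKM, Rpl24 averaged 0.856 FPKM, Rpl39l averaged 1.16 FPKM and Rpl21 averaged 1.17 FPKM.

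The 2 lowest genes are paralogs with a known tissue of their own: Rpl10l replaces Rpl10 in male germ cells and Rpl3l replaces Rpl3 in heart and skeletal muscle. Rpl10l had 0 counts in all 14 libraries, which at a limit of 3 counts allows up to 0.156 to 0.208 per 1000000 of the unscaled library total. CPM are counts per 1000000 of the library size scaled by TMM, edgeR's trimmed mean of M values. Rpl3l summed to 12 counts in the PBS libraries, 16 in the CTX100 libraries and 25 in the CTX140 libraries. Its highest library, CTX100 3, was also the one with the highest sum of skeletal muscle markers (206 CPM, against 3.42 to 18.05 CPM in the other 13 libraries). Outside this library the counts did not follow the markers: CTX140 1 had 7 counts at 8.27 CPM and PBS 2 had 6 at 9.49 CPM, but CTX100 4 had 2 at 18.05 CPM. A link to muscle was not tested. Neither gene passed the count filter, so 78 genes were tested.

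**Figure D1:**
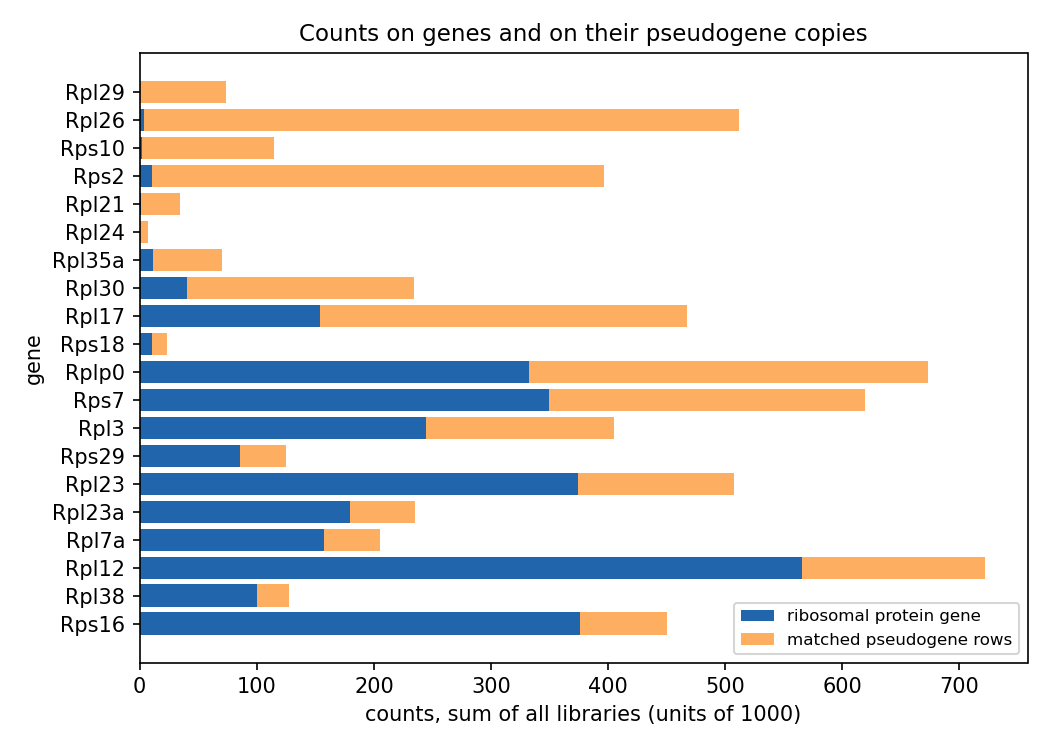
Counts summed over the 14 libraries (x axis, in units of 1000) for the 20 ribosomal protein genes with the largest share of counts on pseudogene copies (y axis), split into the gene's own row (blue) and its matched pseudogene rows (orange). For Rpl26, 99.3% of the counts stand on the copies.

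Very low values of genes such as Rpl24, Rpl21, Rpl29, Rps10 and Rpl26 stood beside high counts on processed pseudogenes, intronless copies of their mRNAs. Of 755 pseudogene rows with at least 140 counts, 194 matched the transcripts of 66 of the ribosomal protein genes over at least 100 bases with at least 90% identity, and 110 of these rows carry names that do not show the kinship. Together the copies held 14.5% of the counts on genes and copies. In 11 genes the copies held more counts than the gene: 50.6% in Rplp0, 55.7% in Rps18, 67.0% in Rpl17, 82.9% in Rpl30, 83.3% in Rpl35a, 97.1% in Rpl24, 97.4% in Rpl21, 97.4% in Rps2, 98.4% in Rps10, 99.3% in Rpl26 and 99.5% in Rpl29. Gm15772 on chromosome 5, which matches the Rpl26 transcript with 99.5% identity over its 438 bases, had 506681 counts, against 3665 counts on Rpl26 itself. How reads that fit several places were counted is not stated in any source read here, so the level of each of these genes is uncertain and the fold changes below are given with the copies too for Rpl29, Rpl35a, Rpl24 and Rps10.

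Across all genes the family took between 7.70% and 12.2% of each library's counts, and neither dose moved that share beyond the spread of the libraries. The share of counts was 9.43%, 12.1%, 9.29% and 7.70% in the PBS libraries (9.62% ± 1.81, SD, n = 4). It was 8.42%, 9.19%, 10.2%, 10.9% and 12.2% in the CTX100 libraries (10.2% ± 1.48, SD, n = 5) and 9.22%, 9.96%, 10.9%, 11.1% and 11.1% in the CTX140 libraries (10.5% ± 0.836, SD, n = 5). The groups overlap, and the highest and the lowest share of the PBS group, in PBS 2 and PBS 4, lie above and below every CTX140 library. The large subunit took 5.49%, 5.86% and 5.98% and the small subunit 4.13%, 4.32% and 4.47% on average in PBS, CTX100 and CTX140 libraries. In bulk tissue, fewer cells of a type and less RNA per cell cannot be told apart, and a share says nothing of the number of ribosomes per cell.

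**Figure D2:**
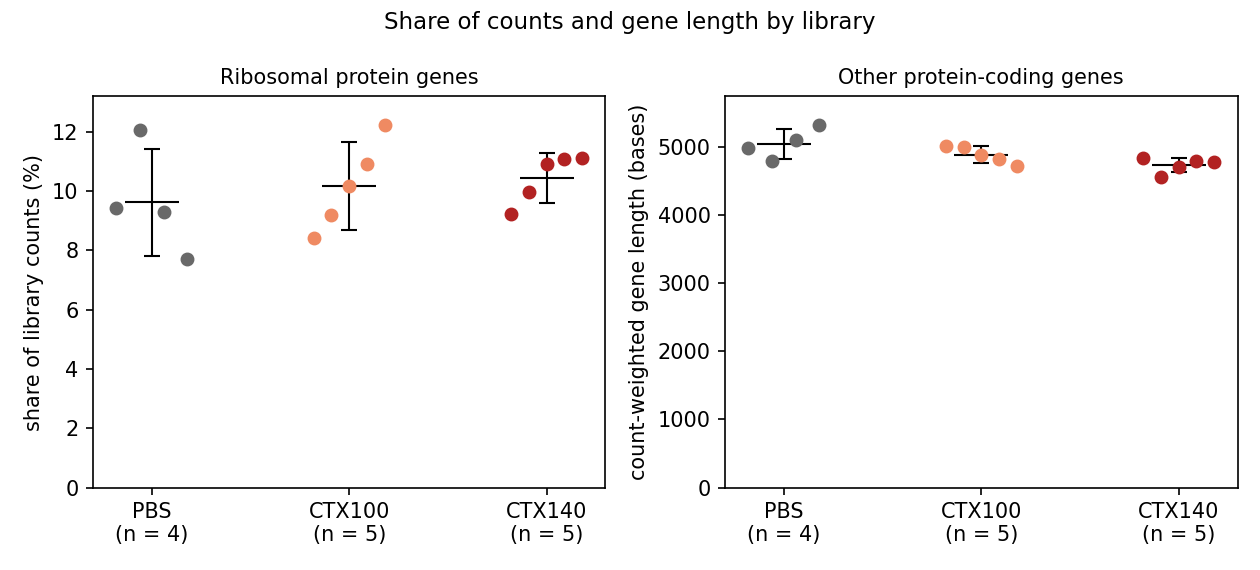
Left, share of each library's counts on the 80 ribosomal protein genes (y axis, percent) by group; right, the count-weighted listed length of all other protein-coding genes (y axis, bases). Points are libraries and bars show mean and SD; the shares overlap between the groups, with PBS libraries from 7.70% to 12.1%.

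Within a group the share differed by up to 1.57-fold (PBS), 1.45-fold (CTX100) and 1.21-fold (CTX140), and other measures moved with it. Of the 26 pairs of libraries of the same group, 25 were ordered by the summed CPM of the 6 neutrophil markers as by the share of the ribosomal protein genes. The neutrophil sum was 594, 792, 1116, 1430 and 1530 CPM in CTX100 libraries 1 to 5, whose shares run in the same order, and it was highest in PBS 2 (1714 CPM) and lowest in PBS 4 (817 CPM) among PBS libraries. The sum is mostly S100a8 and S100a9, short genes of the calprotectin subunits abundant in neutrophils, each with 25 of 26 pairs in that order; the receptors Csf3r and Cxcr2 had 20 and 21 of 26 and Ly6g had 22. Red blood cell markers had 21 of 26 pairs in that order, and the share of other protein-coding counts on genes shorter than 1500 bases had 18 of 26. Blood endothelium ran mostly the opposite way, with 5 of 26 pairs in that order, as did macrophages with 6, adipocytes with 7 and fibroblasts with 8. Among the 6 pairs of PBS libraries, however, 5 were in that order for adipocytes, 3 for blood endothelium, 3 for fibroblasts and 2 for macrophages. The remaining lists lay between, with 10 of 26 for B cells, 12 for T cells, 12 for mast cells, 15 for carcinoma epithelium and 16 for skeletal muscle. The count-weighted length of other protein-coding genes had 5 of 26 pairs in that order, so that shorter mean lengths went with larger shares in 21, including all 10 pairs of CTX100 and all 6 of PBS libraries. These comparisons were chosen after the values were seen, and the part of these cell types or of RNA length in the share was not tested.

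Library by library the abundant members moved as a block. Among the 69 genes with at least 100 CPM, PBS 2 was the highest PBS library for 63 and PBS 4 the lowest for 61. CTX100 5 was the highest CTX100 library for 65 genes and CTX100 1 the lowest for 58. In CTX140 libraries the order was less uniform, with CTX140 1 lowest for 57 genes and CTX140 5 highest for 28. The mean log2 CPM of the 69 genes was 10.19 ± 0.33 in PBS (SD, n = 4), 10.27 ± 0.28 in CTX100 (SD, n = 5) and 10.35 ± 0.12 in CTX140 libraries (SD, n = 5).

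**Figure D3:**
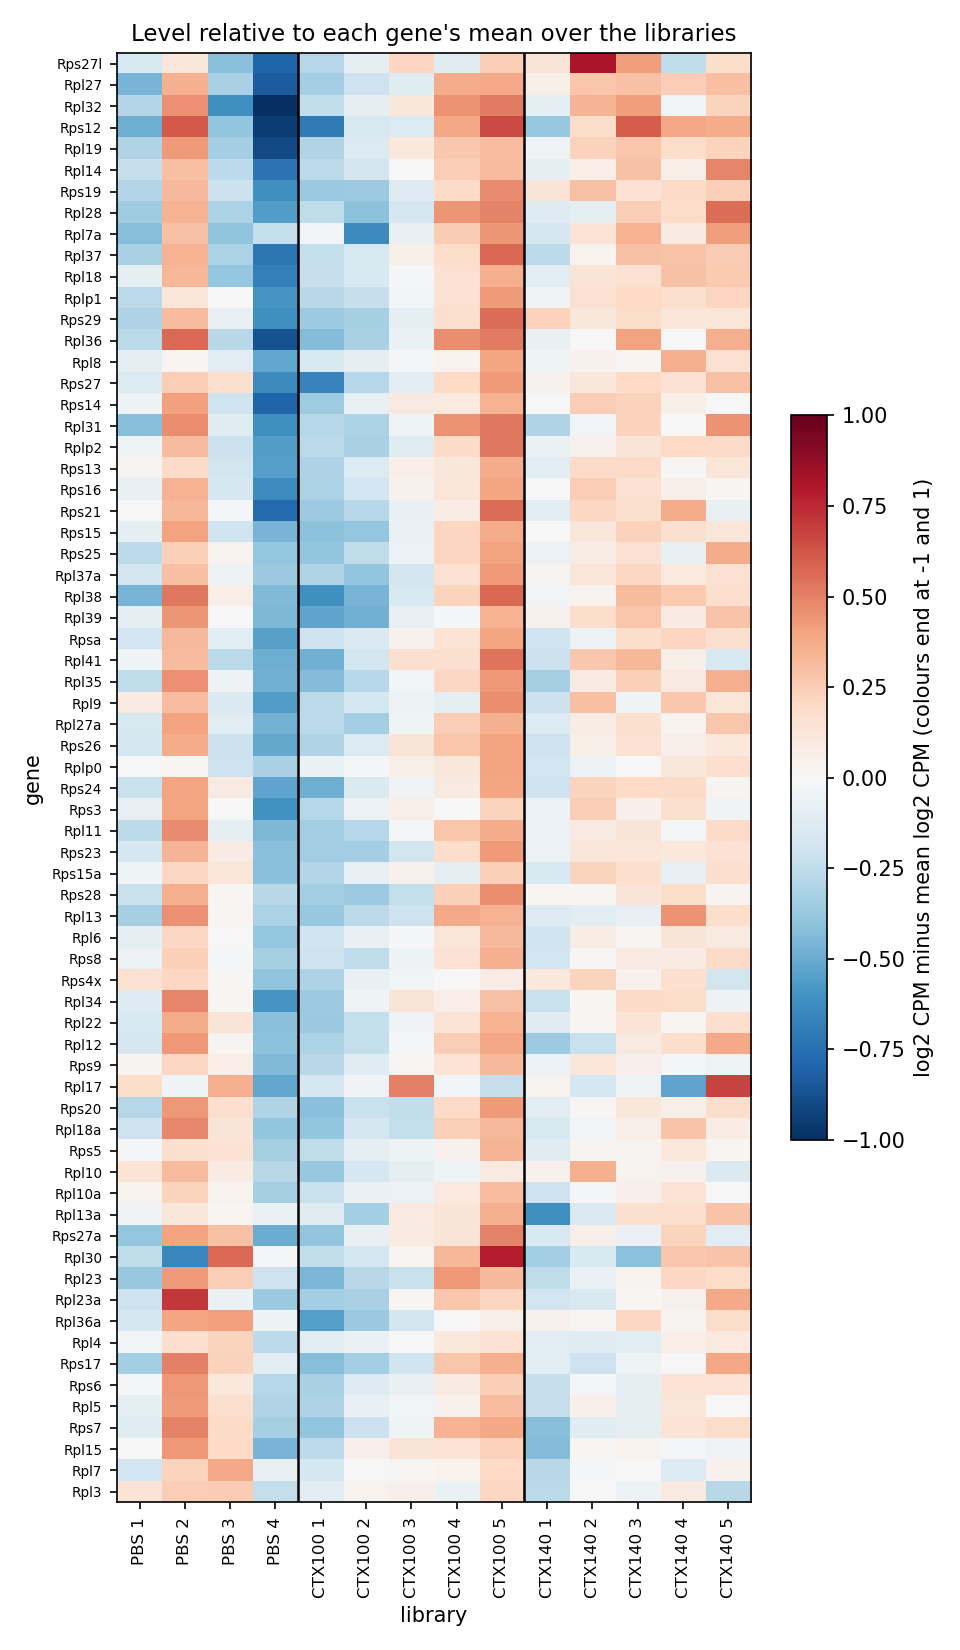
Level of 68 of the 69 ribosomal protein genes with at least 100 CPM (rows, ordered by log2 fold change in CTX140 against PBS) in each library (columns, grouped by PBS, CTX100 and CTX140), as log2 CPM minus the gene's mean over all libraries. PBS 2 and CTX100 5 are high, and PBS 4 and CTX100 1 low, for most rows.

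The spread of most genes was smaller once the common movement was taken out. The median within-group SD of the 69 genes was 0.29 on the log2 scale and 0.12 after the mean of the members was subtracted from each library, and the SD was smaller after the subtraction in 63 of 69. Rps12 had the largest SD (0.52) and Rpl4 the smallest (0.15). The correlation of each gene's log2 CPM with the mean of the others, over 14 libraries that share depth and scaling, had a median of 0.90. It includes differences between the groups and exceeded 0.5 in 66 of 69 genes. The 3 exceptions were Rpl17 (0.15), Rpl30 (0.25) and Rpl3 (0.42). Copies held more counts than the gene in Rpl17 and Rpl30, but also in Rplp0, whose correlation was 0.74. The part of the copies in these correlations was not tested. The difference between the mean log2 CPM of large and small subunit genes was -0.11 ± 0.03 in PBS (SD, n = 4), -0.09 ± 0.04 in CTX100 (SD, n = 5) and -0.12 ± 0.07 in CTX140 libraries (SD, n = 5), with overlapping groups.

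Against this background, the 140 mg/kg dose moved 1 ribosomal protein gene past the threshold, while 3268 of all 15360 genes tested passed it. In edgeR's quasi-likelihood test on counts, with an adjusted p (Benjamini-Hochberg over 15360 genes) under 0.05, CTX140 against PBS called 1 of 78 members higher (Rpl39l) and 0 lower, or 1.28%. Of all genes tested, 11.1% were called higher and 10.1% lower. At an unadjusted p under 0.05 the count was 5 of 78 members, or 6.41%, against 35.7% of all genes. Among genes of at least 100 CPM, 0 of 69 members were called, against 162 called higher and 350 called lower of 1896 other genes (27.0%), although the members' SE were wider (median 0.19 against 0.14 log2). The median log2 fold change of the 78 was 0.13, with 59 above 0, against 0.02 over all genes, and 74 of 78 lay within 0.5 of 0. The median was 0.14 over the large subunit and 0.11 over the small subunit.

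**Figure D4:**
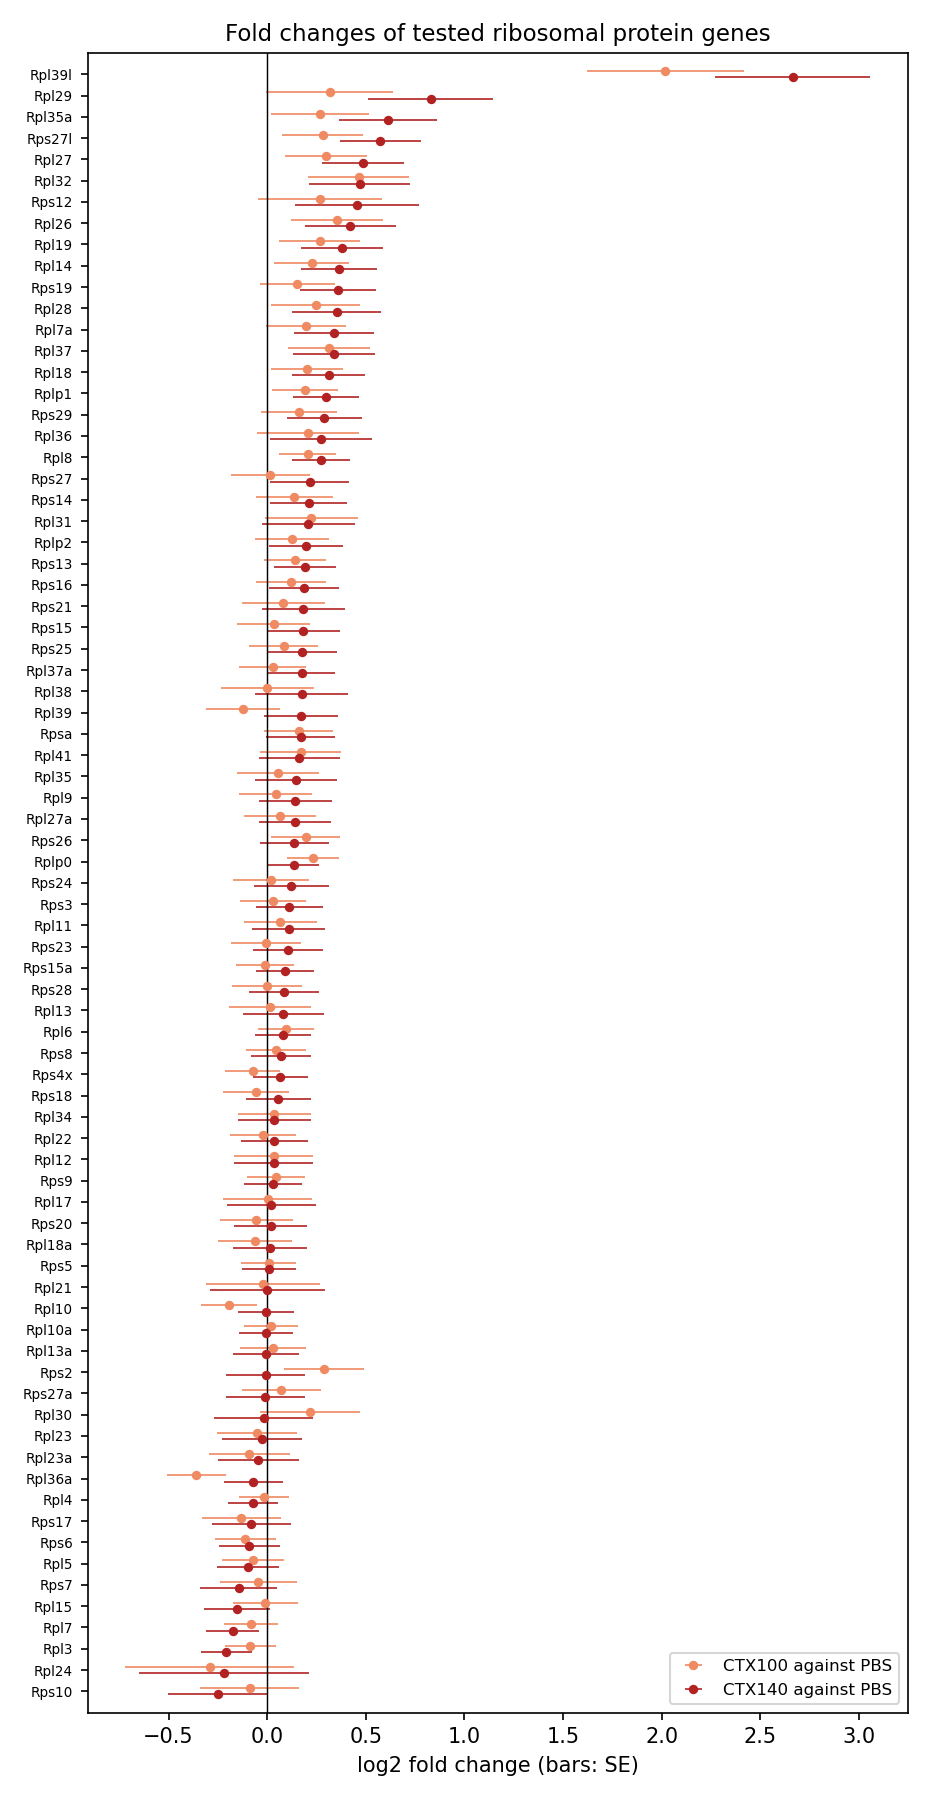
Fitted log2 fold change (x axis, bars are SE) of 77 of the 78 tested ribosomal protein genes (y axis, ordered by CTX140 against PBS), for CTX100 against PBS and CTX140 against PBS, which share the 4 PBS libraries. Rpl39l stands apart at 2.02 and 2.66; nearly all others lie within 0.5 of 0.

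The median depends on which PBS libraries are used. Without PBS 2 it was 0.29, and 11 of 78 members were called higher in CTX140 libraries (Rpl39l, Rpl19, Rpl18, Rpl32, Rpl14, Rps19, Rps12, Rpl27, Rpl37, Rps27l and Rpl35a). In that fit 1970 of all 15713 genes tested were called higher, and 24.8% were called in either direction. Without PBS 4 the median of the members was 0.0019, with 1 called.

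The 100 mg/kg dose also moved Rpl39l alone past the threshold. In CTX100 against PBS, 1 of 78 members was called higher (Rpl39l) and 0 lower, 1.28%, against 1.2% called higher and 0.397% called lower over all genes tested, a share near the background. The median log2 fold change of the members was 0.04, with 53 above 0 and 77 of 78 within 0.5 of 0. Without PBS 2 the median was 0.21 and 2 of 78 members were called higher (Rpl39l and Rpl32). In that fit 389 of all 15713 genes tested were called higher, and 4.37% were called in either direction. Without PBS 4 the median of the members was -0.07. Rpl36a had the lowest fold change, -0.36 (SE 0.15, edgeR adjusted p = 0.221).

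Between the doses no member passed the test. In CTX140 against CTX100, 0 of 78 members were called by edgeR and 0 had an unadjusted p under 0.05, and DESeq2 also called 0; over all genes 0.775% were called higher and 0.475% lower in CTX140 libraries. The median was 0.07 with 58 of 78 above 0.

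Rpl39l was the 1 member called in the main fit of all 14 libraries. It lies on chromosome 16 at 10170226 to 10174911 on the plus strand (mm10) and encodes a paralog of Rpl39, a small protein of the wall of the exit tunnel; it is best known from male germ cells. Its counts were 4, 4, 3 and 4 in PBS libraries, 11, 15, 20, 13 and 24 in CTX100 libraries and 17, 37, 30, 21 and 22 in CTX140 libraries. In CPM this was 0.24 ± 0.03 in PBS (SD, n = 4), 0.98 ± 0.31 in CTX100 (SD, n = 5) and 1.53 ± 0.48 in CTX140 libraries (SD, n = 5). Every treated library lies above every PBS library, while the 2 doses overlap.

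The log2 fold change of Rpl39l was 2.66 in CTX140 against PBS (SE 0.39, edgeR adjusted p = 0.000431) and 2.02 in CTX100 against PBS (SE 0.40, edgeR adjusted p = 0.0244). With only 3 to 4 counts in each PBS library, the size of this fold change depends on the processing. Over 13 other settings with all libraries it ranged from 1.12 to 2.71 in CTX140 against PBS and from 0.74 to 2.05 in CTX100 against PBS. Between CTX140 and CTX100 the log2 fold change was 0.64 (edgeR adjusted p = 0.239), which did not pass. The call at 100 mg/kg was lost without CTX100 3 (edgeR adjusted p = 0.0543), CTX100 5 (0.0584), PBS 3 (0.0866) or PBS 4 (0.0875), and with the library size set to the members' counts (0.0604), while that at 140 mg/kg was kept in each of the 9 fits that left out a library. The counts are small, and a gene at about 1 CPM stands beside its partner Rpl39 at 892 CPM on average. The Rpl39l transcript matched Rpl39 over 171 of its 805 bases with 84.8% identity. Rpl39 averaged 988 ± 76 CPM in CTX140 (SD, n = 5), 807 ± 205 CPM in CTX100 (SD, n = 5) and 878 ± 228 CPM in PBS libraries (SD, n = 4), with overlapping groups and a log2 fold change of 0.17 in CTX140 against PBS (SE 0.19).

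**Figure D5:**
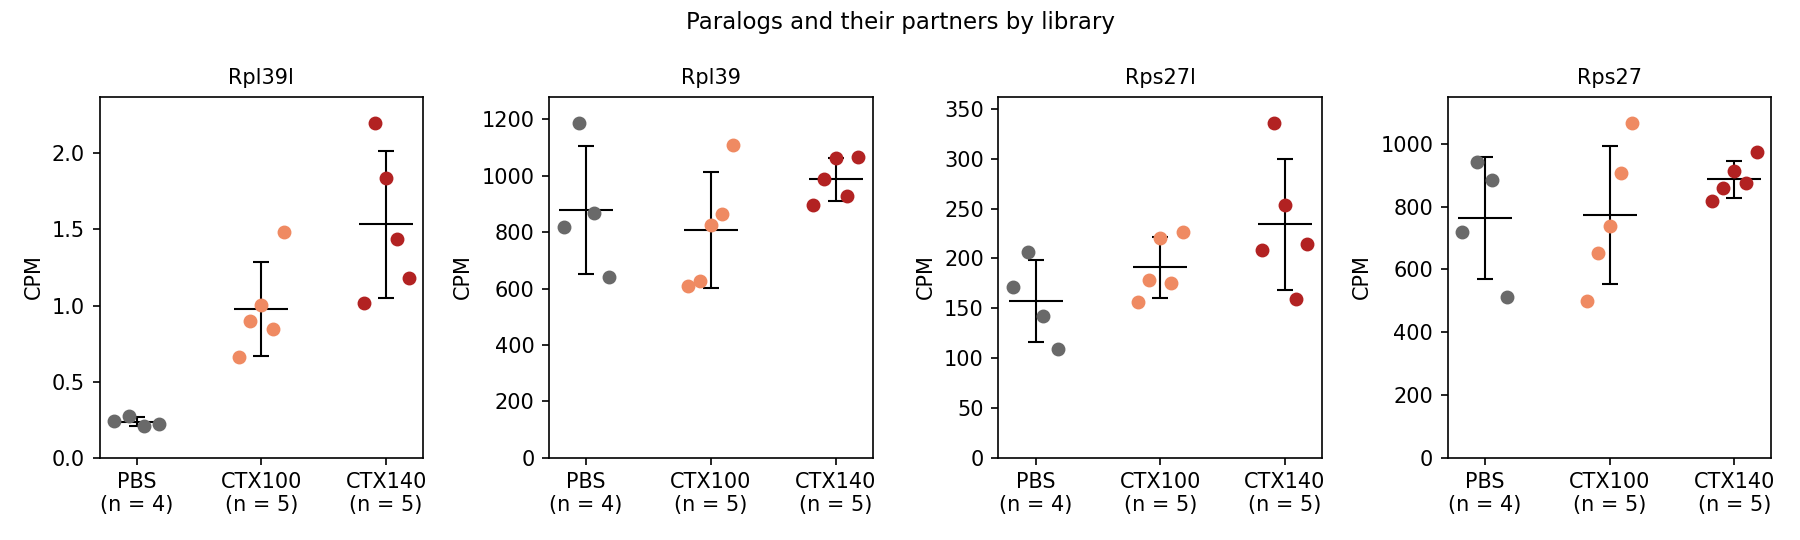
CPM (y axis, from 0) of Rpl39l, its partner Rpl39, Rps27l and its partner Rps27 in each library by group; points are libraries, bars mean and SD. Rpl39l in treated libraries (0.66 to 2.20 CPM) lies above all PBS libraries (0.21 to 0.27 CPM), while the other 3 genes overlap.

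Markers of some other cell types moved in the same direction as Rpl39l, and others did not. The summed level of 7 fibroblast markers was 2308 to 6527 CPM in CTX140 and 1298 to 2256 CPM in CTX100, against 744 to 1273 CPM in PBS libraries. The 5 mast cell markers summed to 13.9 to 85.7 CPM in CTX140 against 4.34 to 13.4 CPM in PBS, and the 6 adipocyte markers to 109 to 580 CPM in CTX140 against 7.14 to 54.1 CPM in PBS libraries. The 6 epithelial markers overlapped, with 1196 to 1771 CPM in CTX140 and 1418 to 2182 CPM in PBS libraries. No marker in these lists was at 0 in a whole group. Their part in the level of Rpl39l was not tested.

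Rps27l, a paralog of Rps27 whose gene is a direct p53 target, was the next of the well-expressed members. Its values were 208, 336, 254, 160 and 215 CPM in CTX140 libraries, against 171, 206, 142 and 109 CPM in PBS libraries. CTX140 libraries were mostly higher, but CTX140 4 lies below PBS 1 and PBS 2. The log2 fold change was 0.57 (SE 0.21, edgeR adjusted p = 0.0576), just short of the threshold. It passed in DESeq2 (adjusted p = 0.0397), with scaling by total counts (0.0457), without CTX140 4 (0.0236) and without PBS 2 (0.0236). It passed in 2 of the 9 fits that left out a library, where the adjusted p reached 0.186 and the fold change ranged from 0.41 to 0.73. In CTX100 libraries it had 156 to 226 CPM and a log2 fold change of 0.28 against PBS (SE 0.21). Rps27 itself averaged 887 ± 59 CPM in CTX140 (SD, n = 5) and 764 ± 193 CPM in PBS libraries (SD, n = 4), a log2 fold change of 0.21 (SE 0.20).

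Of the 10 listed p53 surveillance genes, 8 were called higher and 0 lower in CTX140 against PBS, and 3 were called higher in CTX100 against PBS. Cdkn1a, the p21 cell cycle inhibitor, averaged 145 ± 26 CPM in CTX140 (SD, n = 5) and 46.0 ± 12.2 CPM in PBS libraries (SD, n = 4), a log2 fold change of 1.65 (edgeR adjusted p = 6.79e-05). Sesn2, a stress-induced inhibitor of mTOR complex 1, had a log2 fold change of 1.18 (edgeR adjusted p = 0.000105). Eda2r, a death receptor of the TNF receptor family, had 57, 90, 54, 30 and 35 counts in CTX140 libraries, against 2, 0, 0 and 2 counts in PBS libraries, so few that its fold against PBS is not given (edgeR adjusted p = 6.41e-05). It was also higher in CTX140 than in CTX100, by 1.96 on the log2 scale (edgeR adjusted p = 0.0347).

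Rpl5 and Rpl11, which with 5S rRNA bind Mdm2, did not pass in any comparison. Rpl5 had 1439 to 1838 CPM in CTX140 libraries, against 1367 to 2269 CPM in PBS libraries, and a log2 fold change of -0.10 (SE 0.16). Rpl11 had 1498 to 1778 CPM in CTX140 libraries, against 1142 to 2164 CPM in PBS libraries, and 0.11 (SE 0.19). In both genes the CTX140 values lie inside the range of the PBS values.

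The stalk proteins Rplp0, Rplp1 and Rplp2 had log2 fold changes of 0.13 (SE 0.13), 0.30 (SE 0.17) and 0.20 (SE 0.19) in CTX140 against PBS, none of which passed. Rplp1 had 2877, 3267, 3380, 3290 and 3413 CPM in CTX140 libraries, against 2445, 3207, 2934 and 1957 CPM in PBS libraries. The CTX140 libraries lie high but PBS 2 and PBS 3 exceed the lowest of them.

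Small subunit genes with a known part in disease or signalling also overlapped between groups. Rps19, the gene most often mutated in Diamond-Blackfan anaemia, had 1423, 1598, 1440, 1488 and 1542 CPM in CTX140 libraries, against 1066, 1636, 1126 and 851 CPM in PBS libraries. All CTX140 libraries exceed 3 of the 4 PBS libraries and lie below PBS 2, and the log2 fold change was 0.36 (SE 0.19, edgeR adjusted p = 0.197). Rps14, lost in the 5q- syndrome, had 0.21 (SE 0.19), and Rps6, the S6 kinase substrate, had -0.09 (SE 0.16). Rpsa, known also as the laminin receptor, had 4638 to 6169 CPM in CTX140 libraries, against 3642 to 6644 CPM in PBS libraries, and 0.17 (SE 0.17). Rps27a, made as a fusion with ubiquitin, had -0.01 (SE 0.20).

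On the large subunit, Rpl10, which joins late in assembly, had a log2 fold change of -0.01 (SE 0.14) in CTX140 against PBS, and Rpl22 had 0.04 (SE 0.17). The lowest fold changes of single rows in CTX140 against PBS were those of Rps10 (-0.25, SE 0.25, but 0.02, SE 0.17, summed with its copies), Rpl24 (-0.22, SE 0.43), Rpl3 (-0.21, SE 0.13) and Rpl7 (-0.17, SE 0.14), and none passed. Rpl3 had 873, 1055, 1016, 1124 and 868 CPM in CTX140 libraries, against 1156, 1253, 1259 and 892 CPM in PBS libraries, with overlap through PBS 4. Rpl7 had 1943 to 2415 CPM in CTX140 libraries, against 2057 to 3049 CPM in PBS libraries. Rpl21, at 2.79 to 6.22 CPM in CTX140 libraries and 2.77 to 5.55 CPM in PBS libraries, had 0.0008 (SE 0.29).

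Among the 4 highest fold changes stand 2 genes whose reads are mostly on copies. Rpl29 had 34, 24, 34, 22 and 57 counts in CTX140 libraries, against 16, 22, 15 and 19 counts in PBS libraries, a log2 fold change of 0.83 (SE 0.32, edgeR adjusted p = 0.0731). Summed with its matched copies, which brought it to 325 ± 46 CPM in CTX140 (SD, n = 5) and 298 ± 97 CPM in PBS libraries (SD, n = 4), the fold change was 0.12 (SE 0.17). Rpl35a had 41.6, 70.9, 55.4, 54.5 and 84.6 CPM in CTX140 libraries, against 34.8, 63.2, 37.1 and 25.6 CPM in PBS libraries, a fold change of 0.61 (SE 0.25, edgeR adjusted p = 0.0883), and 0.37 (SE 0.19) with its copies. Rpl24, the other way, had -0.22 (SE 0.43) alone and 0.34 (SE 0.23) with its copies, neither of which passed. Rps27l and Rpl39l have 0 matched copies. The summed families gave 1 call among 78, Rpl39l.

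The 10 genes next to the list by function or name gave no call in any comparison. Rack1, a scaffold on the small subunit, averaged 2388 ± 232 CPM in CTX140 (SD, n = 5) and 2258 ± 389 CPM in PBS libraries (SD, n = 4). Fau, which encodes a ribosomal protein fused to a ubiquitin-like one, had a log2 fold change of 0.26 (SE 0.18) in CTX140 against PBS. Rpl22l1, the paralog that can stand in for Rpl22, had 130 to 162 CPM in CTX140 libraries, against 127 to 284 CPM in PBS libraries, and -0.40 (SE 0.19, edgeR adjusted p = 0.135).

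Other genes of translation and ribosome assembly did pass in places. Of 22 listed translation factors and other genes whose mRNAs carry a 5′ TOP tract, 0 were called higher and 4 lower in CTX140 against PBS. Their median log2 fold change was -0.14. Of the 1896 genes of at least 100 CPM outside the ribosomal protein list, 162 were called higher and 350 lower, with a median of -0.07. The median of the ribosomal protein genes was 0.13 in the same fit of all libraries. It was 0.29 without PBS 2 and 0.0019 without PBS 4, fits for which the other medians are not given. Hnrnpa1, a splicing factor, averaged 391 ± 25 CPM in CTX140 (SD, n = 5) and 597 ± 69 CPM in PBS libraries (SD, n = 4), a log2 fold change of -0.61 (edgeR adjusted p = 0.00105), and it was lower in CTX140 than in CTX100 as well (-0.56, edgeR adjusted p = 0.0260). Eif4b, a cofactor of the helicase eIF4A, fell by 0.64 (edgeR adjusted p = 0.00512) and Nap1l1, a histone chaperone, by 0.48 (edgeR adjusted p = 0.0236) on the log2 scale. Among 29 initiation factors, 2 were called higher and 1 lower.

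Of 55 genes of RNA polymerase I and ribosome assembly, 6 were called higher and 1 lower in CTX140 against PBS, with a median of 0.16. Heatr1, needed for rRNA transcription and processing, rose by 0.54 (edgeR adjusted p = 0.00228), Bysl, a 40S assembly factor, by 0.64 (edgeR adjusted p = 0.0101) and Rrp9, a U3 snoRNP protein, by 0.73 (edgeR adjusted p = 0.0105). Of 27 snoRNP and processome genes, 2 were called higher and 1 lower. Nhp2, of the H/ACA particles that guide pseudouridylation, averaged 175 ± 22 CPM in CTX140 (SD, n = 5) and 88.8 ± 30.5 CPM in PBS libraries (SD, n = 4), a log2 fold change of 0.98 (edgeR adjusted p = 0.00461), and in CTX100 against PBS it was 0.87 (edgeR adjusted p = 0.0485). Nop56, of the C/D particles, rose by 0.66 (edgeR adjusted p = 0.0321), while Wdr36, a processome protein, fell by 0.65 (edgeR adjusted p = 0.00239).

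Mitochondrial ribosomal proteins, which build a separate ribosome, gave 11 called higher and 1 lower of 77 in CTX140 against PBS, with a median of 0.24 and 67 above 0. Mrps21 rose by 0.71 (edgeR adjusted p = 0.0104), Mrps7 by 0.56 (edgeR adjusted p = 0.0130) and Mrps11 by 0.64 (edgeR adjusted p = 0.0243). Of 10 tested genes of Myc and its partners, 1 was called higher, Mxd1, an antagonist of Myc (0.92, edgeR adjusted p = 0.00248). In CTX100 against PBS none of the translation factor, assembly, Myc and mitochondrial lists had a call, where 1.2% of all genes were called higher and 0.397% lower. Shares of called genes in CTX140 against PBS are to be read against the 11.1% called higher and 10.1% called lower over all genes. No list was itself tested.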

How the data were processed

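The authors deposited a table of raw read counts for each gene identifier, whole numbers without scaling, as its values show; a library summed to between 14.4 and 19.3 times 1000000 counts. The deposited FPKM values were made by the authors from these counts: each value above 0 equalled the count over the listed gene length and 1 constant per library, within 1e-06, in 100% of values. Per the submitters' processing notes the build was mm10, and DESeq2 is listed with no word of its use; the aligner, the counter and its strand setting are not stated in any source read here. Groups came from the labels and no library was left out. Replicate libraries differed by more than sampling noise.

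Counts were tested with edgeR 4.0.16 in R 4.3.3 (TMM, filterByExpr, robust quasi-likelihood fit of all 14 libraries with a mean per group, two-sided), with Benjamini-Hochberg adjustment over the 15360 genes tested; the same code was tested on simulated data. Alternatives used DESeq2 1.42.0 and limma 3.58.1 on log2(FPKM + 1). Pseudogene rows were matched with BLAST+ 2.17.0 to GENCODE M21 transcripts, an alternative chosen after seeing the data. Named genes are the 4 highest and 4 lowest fold changes in CTX140 against PBS, called genes, genes under 10 CPM and a fixed list; some genes the rules take are not reported here. The members and all gene lists were chosen with earlier results of these data known. Floors (3 counts) cover counting error only, while the SD and SE also hold the spread between libraries.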

Additional observations from a re-analysis of the deposited data

Results flagged for a closer look

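Of 81 groups of values, from 24 named genes with counts and 3 shares of library counts, 3 had a library whose gap to its nearest neighbour took more of the group's range than Dixon's 95% critical value allows; chance alone flags about 5% of groups. Rpl29 stood high in PBS 2 at 1.503 CPM, where the other PBS libraries had 0.96 to 1.05 CPM, and PBS 2 was also the highest PBS library for most abundant members. Rpl3l stood high in CTX100 3 at 0.60 CPM, which rests on 12 counts, beside 0 to 2 counts in the other CTX100 libraries. Rplp1 stood low in CTX140 1 at 2877 CPM, beside 3267 to 3413 CPM in the other CTX140 libraries, and CTX140 1 was the lowest CTX140 library for 57 of the 69 abundant members.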

How the results depend on the processing

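In CTX140 against PBS the number of members called higher was 2 in place of 1 with total counts as library size, with the library size set to the members, with DESeq2, and with limma on log2(FPKM + 1) and on log2(FPKM + 0.1); leaving out a library gave 1 to 11. In CTX100 against PBS it was 0, with Rpl39l lost, with the library size set to the members, and leaving out a library gave 0 to 2. No member was called lower in any setting, and no named gene's called fold change turned its sign. Under the replicate block the counts were 0 in CTX100 against PBS (Rpl39l, edgeR adjusted p = 0.0515) and 2 in CTX140 against PBS (Rpl39l and Rps27l). Same-numbered libraries correlated between -0.193 and 0.431, and 4 of 13 correlated best with their own number. The labels give no batch, and these correlations cannot exclude one shared by libraries of the same number. With the sequence-matched copies, an alternative added after seeing the data, the share of counts was 12.2% in CTX140 and 11.9% in CTX100 libraries, against 11.3% in PBS libraries. The median log2 fold change of the members ranged from 0.002 to 0.286 in CTX140 against PBS, from -0.066 to 0.208 in CTX100 against PBS and from -0.004 to 0.171 in CTX140 against CTX100. Scaling to the members moved the median of all genes in CTX140 against PBS to -0.14 and that of the members to 0.008. The cause of these differences was not tested. Depth limits Rpl39l, Rpl24, Rpl29 and Rpl3l, which have few counts.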
